A study of Mus musculus with 2 samples.

Results

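Neuronal and Schwann cell genes were measured in the ureters of E14.5 mouse embryos, the tubes between kidney and bladder. The members are 31 named genes, matched to the arrays by gene name: 15 pan-neuronal genes, 10 genes of sympathetic neurons and secretory granules, 5 glial genes and Dclk3, a gene for a doublecortin-like kinase that is not an established marker of either cell type. All 31 had a probe that passed the filter on dim signals, among 21977 genes tested in all, and all 31 were well above background in each RNA.

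The study put 2 two-colour arrays on 1 slide, each carrying 1 RNA labelled Bmp4cKO and 1 labelled control, with the dyes swapped between the arrays. Embryos labelled Bmp4cKO had the genotype Tbx18(cre/+);Bmp4(fl/fl), that is, cre at 1 Tbx18 allele and both Bmp4 alleles floxed. Controls were Tbx18(+/+);Bmp4(fl/?), without cre, with 1 floxed Bmp4 allele and the other not specified. All RNAs came from the NMRI strain and were total RNA of the whole ureter. The cre is driven by Tbx18, a transcription factor gene of the ureteric mesenchyme, and the sources used here do not give the number of embryos behind an RNA.

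Nerves reach the ureter as bundles of axons that run with Schwann cells through the mesenchyme around the epithelium. Autonomic and sensory neurons, Schwann cells and the chromaffin cells of the adrenal medulla descend from the neural crest. Growing neurons make neuron-specific tubulin, neurofilaments and stathmins, noradrenergic neurons and chromaffin cells make catecholamines and package them with granins in dense-core vesicles, and Schwann cells depend on Sox10 and on neuregulin signals through Erbb3. BMP signals are known to promote the noradrenergic fate of crest cells.

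The direction of every value rests on the dye labels, and the targeted gene ran against them. Bmp4 was 3.04 higher on replicate 1 and 3.71 higher on replicate 2 on the log2 scale in the RNA labelled Bmp4cKO, and averaged 3.38 ± 0.48 (SD, n = 2, limma adjusted p = 0.016). Tbx18, the locus that carries the cre, was also higher, by 0.97 ± 0.17 (limma adjusted p = 0.039). The position of the Bmp4 probe relative to the floxed part was not analysed here. Below, "higher" or "rose" means higher in the RNA labelled Bmp4cKO, the direction of Bmp4, and "lower" or "fell" means the opposite. Likewise, "controls" and "control RNAs" mean the RNAs labelled control. If the dye labels were exchanged, every direction would turn. By the dye labels, the authors' value table holds the opposite sign, control over Bmp4cKO. In the authors' deposited table Bmp4 has signed fold changes of -8.16 and -13.9, Tbx18 of -1.95 and -2.04, Tubb3 of 2.68 and 3.92, and Syt1 of -4.67 and -4.41. The arrays are titled Bmp4cKO vs control. Read by that title, the table has Bmp4, Tbx18 and Syt1 lower and Tubb3 higher in Bmp4cKO. Which reading is right was not tested.

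Replicate 1 is labelled female and replicate 2 male, and the replicate 2 RNA labelled Bmp4cKO did not match. Xist, the RNA of the inactive X chromosome, gave processed signals of 1859 and 1536 in the RNAs of replicate 1 and 1464 in the replicate 2 RNA labelled Bmp4cKO, but 4.31 in the replicate 2 RNA labelled control. A second Xist probe gave 2120 and 85.2 in these replicate 2 RNAs, in the same order. Ddx3y, a gene of the Y chromosome, gave 6.25 in the replicate 2 RNA labelled Bmp4cKO and 2720 in the one labelled control. On replicate 2, sex-linked signal therefore differed between the compared RNAs, while on replicate 1 both were Xist-positive. The members' values are given for each array, so that replicate 1 can be read alone, though label and dye cannot be told apart on a single array. That the 14 members that passed had the same direction there is fixed by a test that needs both arrays. The part of the sex difference in the results was not tested. Per RNA, 69.3% to 74.6% of probe spots stood well above background, and none was saturated. With 1 residual degree of freedom a gene, the p-values rest on the spread between 2 arrays and on a spread shared across genes.

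The probes behind the results are 60 bases long, and the first 30 bases are shown for 7 members on which the results turn, 5′ to 3′ as deposited with the arrays. Snap25 is shown because its probe opens with a CA repeat, in capitals, and CA repeats occur at many sites of the genome.
Tubb3: ggttgtgtttatattcggggggaggggtat
Nefl: gactttcaatgtgtgctatgaatttcctcc
Isl1: cccccaaagatgtgtatagttattggttaa
Chgb: tagcgtgacttgtagcgtattcttcctgca
Syt1: aggggctttcctacttaagggaccaagtcc
S100b: gaagctggacttgaggctttctaacttgca
Snap25: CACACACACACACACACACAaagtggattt

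In mm9 coordinates, as the arrays give them, the Tubb3 probe is at chr8:125945850-125945909, Nefl at chr14:68705638-68705698, Isl1 at chr13:117088774-117088833, Chgb at chr2:132620703-132620762, Syt1 at chr10:107935310-107935369 and S100b at chr10:75723783-75723842. Exon and transcript positions of the probes were not analysed here.

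Of the 31 members, 9 were lower and 5 were higher (limma, adjusted p under 0.05), and 17 did not pass. Over all genes tested, 1.03% were lower and 0.892% were higher by the same test. All members were chosen with earlier results of these arrays known, so these counts are a description. Without Dclk3, 8 of 30 were lower. The lower members were mainly genes of the axonal cytoskeleton, and the higher ones were Syt1, Chgb, Chga, Ddc and S100b. By size alone, 8 members were at least 2-fold lower on both arrays and 2 at least 2-fold higher, against 0.619% and 0.582% of all genes. When the arrays were only centred on their median, in place of the intensity-dependent loess fit, limma called 0 of 31 members and 0 genes, with 18 members and 1759 genes at an unadjusted p under 0.05. The direction of each of the 14 members was the same in that fit.

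**Figure D1:**
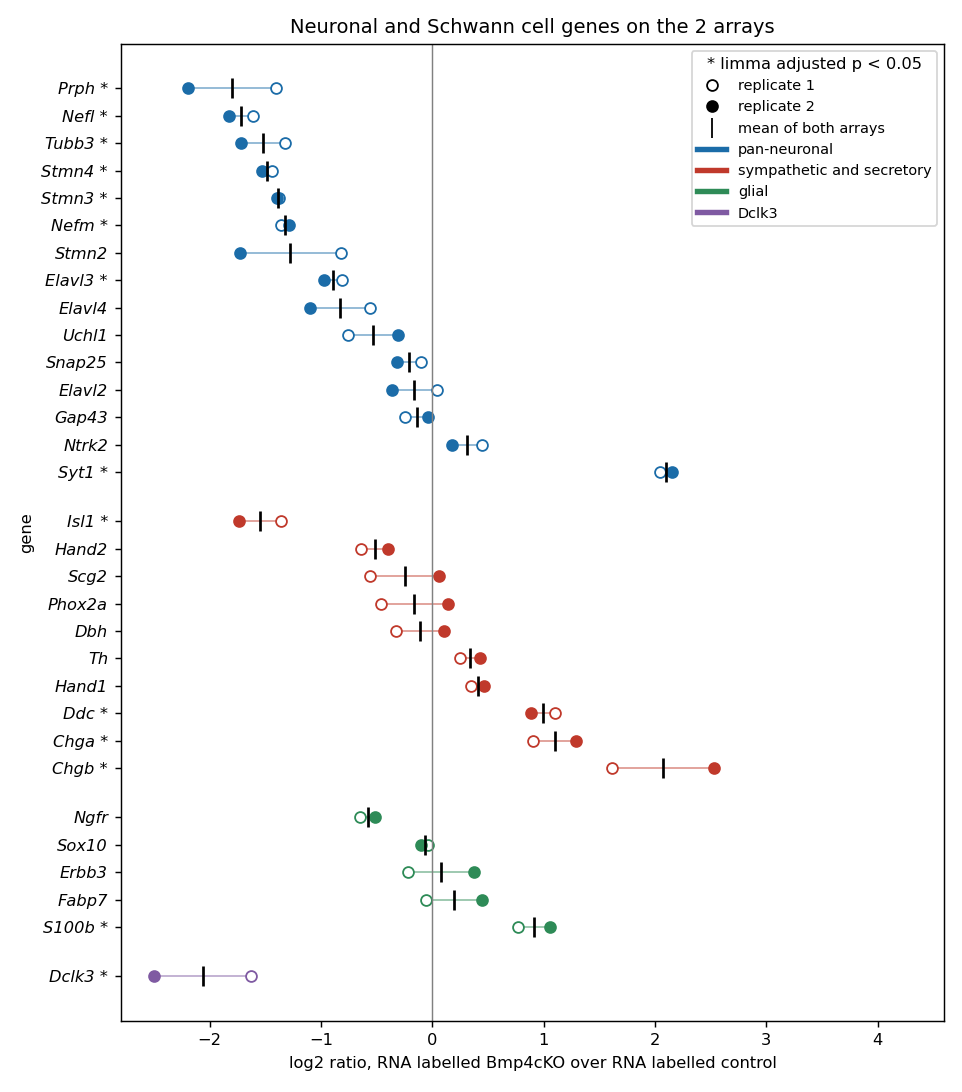
Log2 ratio of labelled Bmp4cKO over labelled control RNA (horizontal axis) for each of the 31 members (vertical axis), with open points for replicate 1, filled points for replicate 2 and a bar at their mean; asterisks mark limma adjusted p under 0.05. Prph to Nefm lie below -1 on both arrays, and Syt1 and Chgb lie above 1.5 on both.

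Levels below are normalized log2 intensities of 1 probe in 1 RNA, comparable between RNAs but not between genes. In bulk RNA, fewer cells of a type and less RNA per cell cannot be told apart.

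The filament genes Prph, Nefl and Nefm fell, and Prph and Nefl had the largest falls among the pan-neuronal members. Prph encodes peripherin, the filament protein of peripheral neurons. Its level was 10.37 and 9.68 in the RNAs labelled Bmp4cKO, and 11.78 and 11.87 in those labelled control. Both control RNAs were above both others, with a mean log2 difference of -1.80 ± 0.56 (SD, n = 2), or 3.48-fold lower (limma adjusted p = 0.034). Nefl encodes the light neurofilament subunit, the core of the axonal neurofilament. It stood at 11.09 and 10.53 in the RNAs labelled Bmp4cKO and at 12.70 and 12.35 in the controls. The groups did not overlap, and the difference of -1.72 ± 0.15 was a 3.29-fold fall (limma adjusted p = 0.019). Nefm, the medium subunit, read by 10 spots an array, had levels of 10.12 and 9.83 against 11.48 and 11.11. It was 2.50-fold lower, again without overlap (-1.32 ± 0.05, limma adjusted p = 0.023).

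Tubb3, Stmn3 and Stmn4, whose products form or bind microtubules, fell as well. Tubb3 is the neuron-specific beta-tubulin and the marker for neurons here. Its level was 9.27 and 8.81 in the RNAs labelled Bmp4cKO, and 10.59 and 10.53 in the controls. Both control RNAs were higher, by a mean of 1.52 on the log2 scale, so the gene was 2.87-fold lower (-1.52 ± 0.28, limma adjusted p = 0.023). The stathmins bind tubulin dimers, and Stmn2, Stmn3 and Stmn4 are the neuronal ones. Stmn3 was at 10.40 and 10.17 against 11.78 and 11.57, a 2.62-fold fall with nearly the same ratio on each array (-1.38 and -1.40, limma adjusted p = 0.020). Stmn4 was at 10.05 and 9.68 against 11.50 and 11.21, a 2.80-fold fall (-1.49 ± 0.06, limma adjusted p = 0.019). A second Stmn4 probe gave -1.65 but shares 44 bases with the first, so it is no separate check. For Stmn2 the levels were 11.23 and 10.50 against 12.06 and 12.23. Both control RNAs were again higher, but the ratios of -0.82 and -1.73 lay apart and the gene missed the threshold (-1.28 ± 0.64, limma adjusted p = 0.076).

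The Elavl genes encode neuronal RNA-binding proteins of the Hu family. Elavl3 stood at 8.13 and 8.02 in the RNAs labelled Bmp4cKO and at 8.94 and 8.99 in the controls. The groups did not overlap, and it was 1.86-fold lower (-0.89 ± 0.12, limma adjusted p = 0.041). Elavl4 was at 10.18 and 9.67 against 10.74 and 10.77, without overlap but short of the threshold (-0.83 ± 0.38, limma adjusted p = 0.097). Its dimmer probe gave a mean of -0.98. Elavl2 had ratios of 0.04 and -0.37, of opposite sign, and its groups overlapped (limma adjusted p = 0.75).

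Presynaptic and growth cone genes did not share one direction. Syt1 encodes synaptotagmin, the calcium sensor of vesicle release. It was at 12.71 and 12.65 in the RNAs labelled Bmp4cKO and at 10.66 and 10.50 in the controls. Syt1 was the 1 pan-neuronal member that rose, 4.28-fold and the 25th largest rise of all genes (2.10 ± 0.08, limma adjusted p = 0.016). Snap25, a SNARE protein of the same vesicle machinery, was at 12.05 and 11.68 against 12.16 and 11.99, with overlapping groups (-0.21 ± 0.15, limma adjusted p = 0.57). Gap43, a growth cone protein, had ratios of -0.24 and -0.04, a mean of -0.14 ± 0.15 (limma adjusted p = 0.74). Uchl1 encodes the neuronal deubiquitinase also known as PGP9.5. It was lower on both arrays, by -0.76 and -0.31, without passing (limma adjusted p = 0.20). Ntrk2, the receptor for BDNF, had ratios of 0.45 and 0.18, a mean of 0.31 ± 0.19 (limma adjusted p = 0.38). Its 3 probes did not share a sign, with the means of the others at 0.29 and -0.25.

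Among the 15 pan-neuronal members, 7 were lower and 1 higher by limma, and 6 and 1 by the 2-fold rule. The ratio was below 0 on both arrays for 12 of the 15, against 30.6% of all genes. The median of the 15 mean log2 ratios was -0.89 (-0.81 on replicate 1 and -1.10 on replicate 2), beside -0.01 over all genes.

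**Figure D2:**
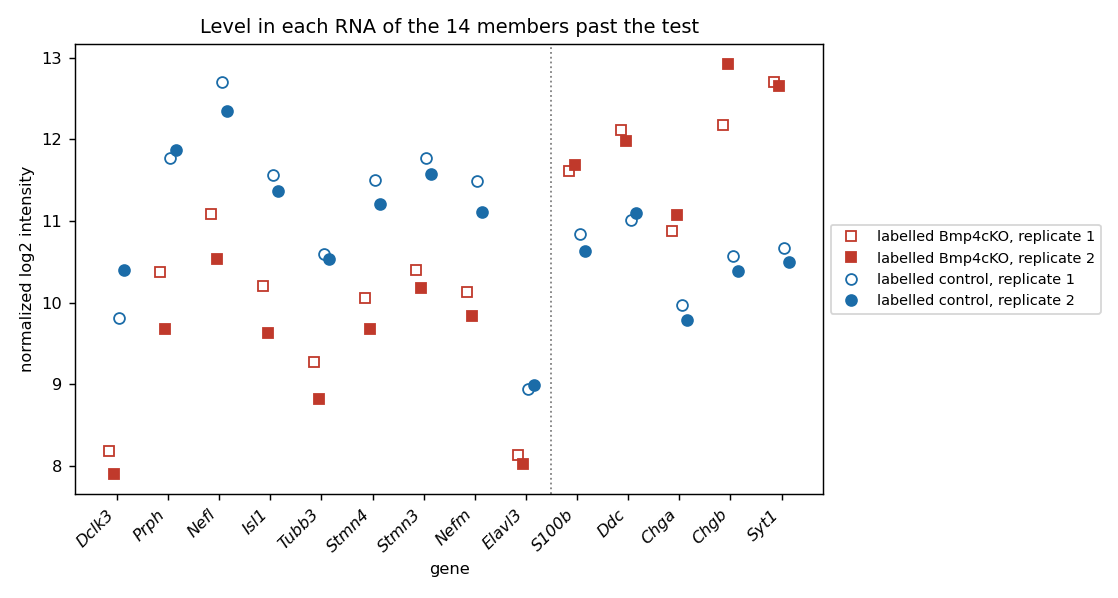
Normalized log2 intensity (vertical axis) in each of the 4 RNAs for the 14 members that passed the test (horizontal axis), with squares for RNAs labelled Bmp4cKO and circles for controls, open for replicate 1 and filled for replicate 2. In the 9 genes left of the dotted line both circles lie above both squares, and in the 5 genes to the right both squares lie above both circles.

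Of the sympathetic and secretory members, Isl1 fell, Ddc, Chga and Chgb rose, and the other 6 did not pass. Isl1 encodes a LIM-homeodomain transcription factor of sympathetic and sensory neurons, which other embryonic tissues also express. Its level was 10.21 and 9.63 in the RNAs labelled Bmp4cKO and 11.57 and 11.37 in the controls. Both control RNAs were higher, and Isl1 was 2.93-fold lower (-1.55 ± 0.27, limma adjusted p = 0.023). It was the 1 member of its group that fell. The other transcription factors of the group did not pass. Phox2a, a homeodomain factor of autonomic neurons, had ratios of -0.46 and 0.14 (limma adjusted p = 0.80). Hand2, a basic helix-loop-helix factor of noradrenergic neurons, had -0.64 and -0.40 (limma adjusted p = 0.15). Its relative Hand1 had dim processed signals, from 31.2 to 68.3, and ratios of 0.35 and 0.47 (limma adjusted p = 0.21). Hand2 was thus below 0 on both arrays and Hand1 above 0 on both, and neither passed.

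Catecholamine synthesis runs from tyrosine through Th, the rate-limiting hydroxylase, Ddc, the decarboxylase that makes dopamine, and Dbh, which makes noradrenaline. The middle enzyme rose. Ddc was at 12.11 and 11.98 in the RNAs labelled Bmp4cKO and at 11.01 and 11.09 in the controls, without overlap, a 1.99-fold rise (0.99 ± 0.15, limma adjusted p = 0.037). Its other probe gave 1.31. Ddc is not specific to neurons, since kidney tubules make it as well. Th was at 11.49 and 11.43 against 11.24 and 11, higher on both arrays and short of the threshold. The mean for Th was 0.34, with a 95% interval from 0.03 to 0.66 (limma adjusted p = 0.30). Dbh had ratios of -0.32 and 0.10, a mean of -0.11 with an interval from -0.49 to 0.27 (limma adjusted p = 0.85). These intervals are limma's own, for single genes, and not adjusted for the number of genes.

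The granins are acidic proteins of dense-core secretory granules in neurons and endocrine cells. Chgb was at 12.18 and 12.92 in the RNAs labelled Bmp4cKO and at 10.57 and 10.39 in the controls. The groups lay far apart, and Chgb rose 4.20-fold, the 27th largest rise of all genes (2.07 ± 0.65, limma adjusted p = 0.031). Chga was at 10.88 and 11.07 against 9.97 and 9.78, without overlap, a 2.14-fold rise (1.10 ± 0.27, limma adjusted p = 0.039). With the scanner's processed signals Chga missed the threshold (limma adjusted p = 0.054). Scg2, secretogranin II, had dim signals and ratios of -0.56 and 0.06, and did not pass (limma adjusted p = 0.65).

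Of the 10 sympathetic and secretory members 3 were higher and 1 lower. Their ratios had the same sign on both arrays in 7, of which 5 were above 0 and 2 below. The median was 0.12, beside -0.01 over all genes, and this median describes genes that moved in opposite directions.

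The granin genes and Th are known for a cyclic AMP response element next to their start, so their promoters are shown, as bases 110 to 31 before the gene start from RefSeq on GRCm38.p6. Capitals mark the octamer TGACGTCA or, in Chga, TGACGTAA.
Chga, chr12:102554831-102554910, plus strand: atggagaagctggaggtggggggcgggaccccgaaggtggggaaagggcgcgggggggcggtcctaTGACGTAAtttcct
Chgb, chr2:132781532-132781611, plus strand: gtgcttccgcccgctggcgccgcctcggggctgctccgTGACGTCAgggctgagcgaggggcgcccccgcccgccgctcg
Scg2, chr1:79440057-79440136, minus strand: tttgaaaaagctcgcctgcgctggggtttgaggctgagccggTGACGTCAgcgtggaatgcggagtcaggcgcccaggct
Th, chr7:142900026-142900105, minus strand: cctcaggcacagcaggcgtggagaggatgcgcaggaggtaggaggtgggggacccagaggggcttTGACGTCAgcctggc

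Promoter windows, from 250 bases before to 50 after the start, were matched for 21 of the 31 members. TGACGTCA, searched on both strands, lay in the windows of 3 members, Chgb, Scg2 and Th, and in 588 of all 32851 windows (1.79%). TGACGTAA lay in that of Chga and in 164 windows (0.499%). The octamer starts 72 bases before the Chgb start, 68 before Scg2, 45 before Th and 44 before Chga. Of these 4 genes, Chga and Chgb passed the test and Scg2 and Th did not. TTCAGCACC, a part of the element bound by the repressor REST, was searched on both strands as well. It lay in the window of 1 member, Scg2, and in 0.371% of all windows. These are matches of letters only.

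The glial members showed no shared shift. Sox10, the transcription factor that marks crest cells and Schwann cells, was at 10.99 and 10.97 in the RNAs labelled Bmp4cKO and at 11.03 and 11.06 in the controls. The mean difference of -0.07 ± 0.04 had a 95% interval from -0.37 to 0.23 (limma adjusted p = 0.89). Ngfr, the p75 neurotrophin receptor of crest cells, immature Schwann cells and some neurons, was at 11.50 and 11.73 against 12.15 and 12.24. It was lower on both arrays without passing (-0.58 ± 0.10, limma adjusted p = 0.10). Erbb3, the neuregulin receptor of Schwann cells, had ratios of -0.22 and 0.37, and Fabp7, a fatty acid binding protein of immature glia, had -0.06 and 0.45. Neither passed, at limma adjusted p = 0.92 and 0.71.

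S100b, a calcium-binding protein of Schwann cells and other cells, was the 1 glial member that rose. It was at 11.61 and 11.69 in the RNAs labelled Bmp4cKO and at 10.84 and 10.63 in the controls. The groups did not overlap, and the 1.89-fold rise lay just inside the threshold (0.92 ± 0.20, limma adjusted p = 0.048). It missed the threshold with the scanner's processed signals (limma adjusted p = 0.053) and with the mean of all passing probes of each gene (0.052).

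Dclk3 was the member that fell furthest. It was at 8.18 and 7.90 in the RNAs labelled Bmp4cKO and at 9.81 and 10.40 in the controls. Both control RNAs were higher, and Dclk3 was 4.18-fold lower, the 15th largest fall of all genes (-2.06 ± 0.61, limma adjusted p = 0.029).

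In all, the groups did not overlap in 16 members that were lower and 7 that were higher, which 19.5% and 18.8% of all genes also did.

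**Figure D3:**
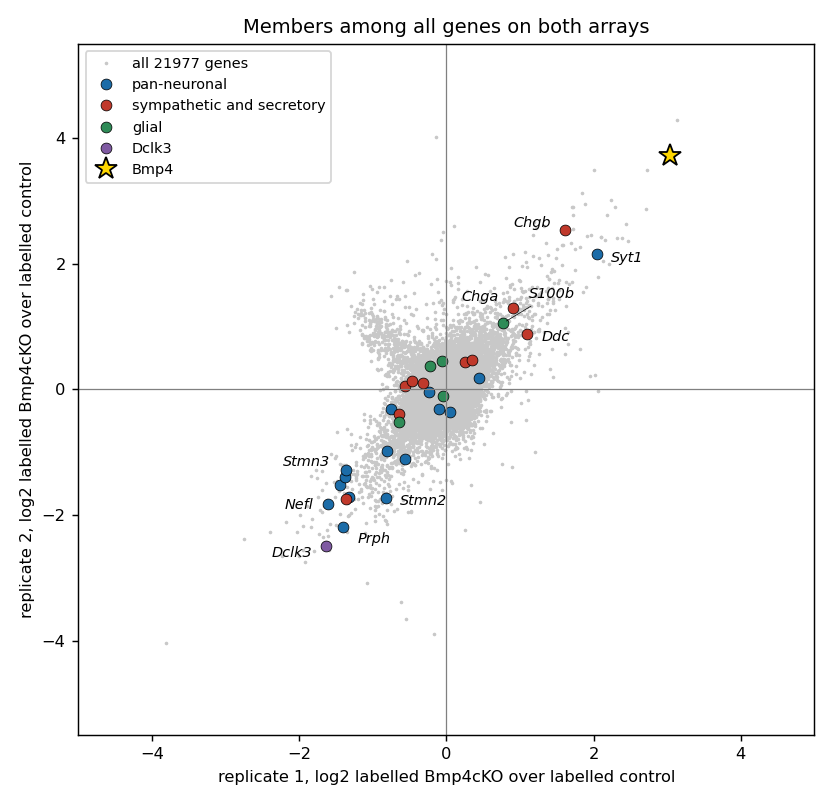
Log2 ratio of labelled Bmp4cKO over labelled control on replicate 1 (horizontal axis) against replicate 2 (vertical axis) for all 21977 genes in grey and the 31 members in colour by group, with Bmp4 as a star. Syt1 and Chgb lie on the side of Bmp4 and most pan-neuronal members on the opposite side; grey points in the upper left and lower right had opposite signs on the arrays.

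Other genes of the same cells were read from lists of further neuronal, autonomic, sensory, glial and trophic genes. Of 34 other neuronal genes 31 were measured: 7 were lower and 0 higher by limma, with 19 at an unadjusted p under 0.05 and a median of -0.36. Over all genes 3195 of 21977 were at an unadjusted p under 0.05, the background for this count and for those of the lists that follow. Among the neuronal genes that did not pass was Nefh, the heavy neurofilament subunit (-0.57 ± 0.22, limma adjusted p = 0.14), named here after its value was seen. The 7 were Ina (-1.54 ± 0.21, limma adjusted p = 0.022), a neuronal intermediate filament, Dcx (-1.41 ± 0.32, 0.029), a microtubule protein of young neurons, Cplx1 (-1.08 ± 0.17, 0.034), a regulator of vesicle fusion, Rtn1 (-1.08 ± 0.22, 0.037), a reticulon, Kif5a (-1.03, 0.031), the neuronal kinesin heavy chain, Mapt (-0.98 ± 0.04, 0.035), the tau protein, and Gng3 (-0.85 ± 0.01, 0.042), a G protein subunit. Of these, Ina and Kif5a did not pass with the mean of all passing probes, at -1.11 and -0.63, and Dcx and Cplx1 did not pass when the channels were fitted as separate values.

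Among autonomic genes, 20 of 23 were measured, with 2 lower, 0 higher (12 at an unadjusted p under 0.05 by limma) and a median of -0.22. Slc18a3, the vesicular acetylcholine transporter of cholinergic neurons, fell, with ratios of -1.35 and -1.56 (limma adjusted p = 0.021). Of 15 sensory neuron genes 9 were measured and limma called 0, with 3 at an unadjusted p under 0.05. Ntrk3, the receptor for neurotrophin-3, was at -0.92 ± 0.31 (limma adjusted p = 0.063). It passed in 5 of 13 refits with other settings, at 0.0077 in the lowest, so the count of 0 depends on the setting. Isl2 was not well above background in either control RNA and is given no fold (limma adjusted p = 0.23).

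Of 22 other glial and crest genes 21 were measured, and 1 passed, upwards. By limma 7 were at an unadjusted p under 0.05, and the list median was 0.04. The gene that passed was Ednrb, the endothelin receptor of crest cells and glia, with ratios of 1.54 and 1.44 (limma adjusted p = 0.019). Endothelial and mesenchymal cells can express Ednrb as well. Of 10 trophic ligand genes 8 were measured, with 3 at an unadjusted p under 0.05 by limma. Nrg1, the neuregulin ligand of Erbb3 and its partners, rose with ratios of 1.37 and 1.80 (limma adjusted p = 0.023), and Gdnf, the ligand of the Ret receptor, fell by a mean of 2.15 on the log2 scale (limma adjusted p = 0.016).

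**Figure D4:**
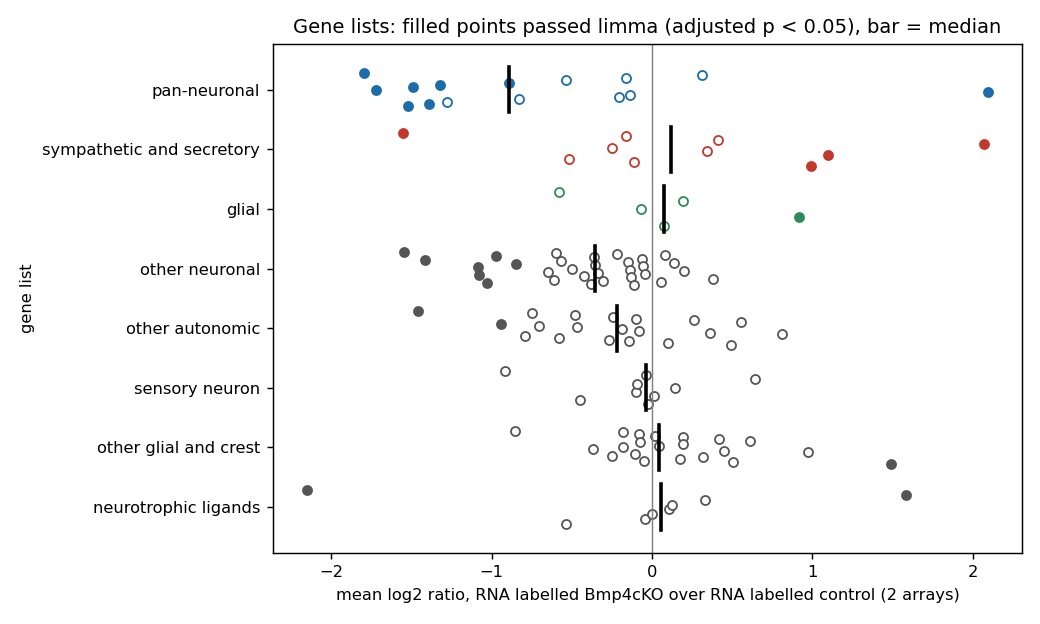
Mean log2 ratio of labelled Bmp4cKO over labelled control (horizontal axis) for each measured gene of 8 lists (vertical axis), filled where limma adjusted p was under 0.05, with a bar at each list's median. The pan-neuronal median is -0.89 and that of the other neuronal genes -0.36, while the glial median is 0.07.

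Markers of other cells of the dissected tissue moved in the same libraries. Of 14 urothelium genes 6 rose and 0 fell, led by Upk1b at 3.72 and Upk3a at 2.48, and their summed processed signal was 110896 and 116608 in the RNAs labelled Bmp4cKO against 56849 and 62288 in the controls. Of 11 smooth muscle genes measured 3 rose and 0 fell, with Myh11 at 2.48 and Actg2 at 2.31, and summed signals of 69399 and 103089 against 63282 and 73160. With limma's robust prior Upk1b, Myh11 and Actg2 did not pass (adjusted p = 0.052, 0.14 and 0.13), and Actg2 also missed with separate channels (0.0504). Of 12 kidney genes measured 5 fell and 0 rose, with Gdnf at -2.15 and Wnt9b at -1.97, and summed signals of 47273 and 48948 against 49648 and 66121. Most of the summed kidney signal in each RNA came from genes that did not pass.

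None of 9 steroidogenic genes, markers of the nearby gonad and adrenal cortex, passed by limma, with 2 at an unadjusted p under 0.05. Their summed signals were 11032 and 12607 against 11182 and 11941, nearly all from the widely expressed Fdx1, and 1417 and 947 against 1347 and 1214 without it. Of 9 ureteric mesenchyme genes 2 rose and 1 fell, with Aldh1a2 at -1.83 and Gata6 at 1.09. Of 11 skeletal muscle genes measured 1 rose and 1 fell, Actc1 at 1.12 and Myog at -0.89. Both missed with separate channels (limma adjusted p = 0.065 and 0.066), and Actc1 also with processed signals (0.062) and the authors' value table (0.052). None of 8 endothelial or 8 macrophage genes passed by limma, with 5 and 2 at an unadjusted p under 0.05. Ptprc, the leukocyte antigen CD45, lay just outside the threshold (-0.80 ± 0.05, limma adjusted p = 0.0502) and passed in 7 of 13 refits. The part of these other cells, and of their shares in each dissected ureter, in the changes of the neuronal and glial genes was not tested.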

How the data were processed

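Total RNA of 4 ureter samples was hybridised to 2 Agilent two-colour arrays with swapped dyes, 200 ng an RNA. The authors scanned the arrays with Agilent Feature Extraction 10.7.3.1, per the submitters' processing notes, and deposited spot intensity values, a log10 ratio of red over green, outlier and background marks (other) and a value table of signed fold changes per probe (a score here).

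Mean intensity was corrected with normexp (offset 50) against the median background, normalized by loess within each array and averaged over the spots of a probe. A probe was kept if well above background in both RNAs of either label, and each gene took its brightest kept probe. Ratios, turned by the dye labels, were fitted in limma 3.58.1 (R 4.3.3) with Benjamini-Hochberg adjustment over 21977 genes and a threshold of 0.05. Each ratio is taken within an array, so array is already a block, and slide and scan time are shared. Levels per RNA were made with loess and Aquantile. RefSeq named 31001 of 39429 probes, and 8428 kept the array's name. Among probes above background in all channels, 99.6% of the deposited table's values lay within 0.01 (log2) of the scanner's ratio in size, signs left aside. Their sign was that of the scanner's red over green for 99.98% on replicate 1 and 0.0076% on replicate 2. The fit was tested on simulated data drawn from its own fitted spread, which cannot check that spread or the normalization.

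Members and lists were chosen with earlier results of these data known. The text names all 31 members, Bmp4 and Tbx18, in the other neural lists each gene past the threshold (or the 2 furthest from 0), and in marker lists at most the 2 furthest from 0. One gene that this rule takes in is not reported here. Alternatives covered background correction, normalization, filter, probe choice, prior and each replicate left out.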

Additional observations from a re-analysis of the deposited data

Results flagged for a closer look

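Several members had ratios of opposite sign on the arrays, which differ in dye orientation and sex label. Replicate 2 minus replicate 1 was 0.59 for Erbb3, 0.51 for Fabp7, 0.62 for Scg2, 0.60 for Phox2a, 0.43 for Dbh and -0.41 for Elavl2 on the log2 scale, and the differences were not tested. Opposite signs occurred in 6 of 31 members and in 41.2% of all genes. List medians also changed sign between the arrays: the difference was 0.32 for the sympathetic and secretory members, 0.43 for the glial members, 0.12 for the other glial and crest genes and -0.32 for the steroidogenic genes, again not tested.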

How the results depend on the processing

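No member past the threshold changed direction under any alternative that was run. All alternatives reuse the same 2 arrays, so this is no separate check. With a replicate left out, the direction is fixed by a test that needs both arrays. The calls depended on the loess fit. With median centring limma called 0 genes lower, 0 higher and 0 members either way, and with no normalization 1 gene lower, 0 higher and 0 members either way, at 108 genes and 5 members with an unadjusted p under 0.05. Without normalization 85 genes were at least 2-fold lower, 32 at least 2-fold higher, and 1 member at least 2-fold higher. The 9 lower members remained called in the other 11 refits. Plain background subtraction called 388 genes lower and 339 higher, and an intensity trend 672 and 614, with Stmn2 (limma adjusted p = 0.011), Elavl4 (0.029) and Ngfr (0.026) added among members. The scanner's processed signals gave 3 higher members, 258 genes at least 2-fold lower, 223 at least 2-fold higher and a pan-neuronal median of -1.24. The authors' value table gave 298 genes higher, 214 at least 2-fold lower and a pan-neuronal median of -1.24. The cause of these differences was not tested. Single arrays gave 233 to 339 genes at least 2-fold lower, 170 to 416 at least 2-fold higher, 3 to 4 members at least 2-fold higher, a pan-neuronal median from -1.10 to -0.81 and a median over all members from -0.46 to -0.31. The reported ratios are paired within an array. Channels fitted as separate values with no replicate block called 171 genes lower and 155 higher, and 9 and 5 members. Separate channels with a replicate block and a dye term could not be fitted, since no residual degrees of freedom remain. The precision is limited by 2 arrays.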
